A study of Mus musculus with 3 samples.

Results

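Ptch1, on chromosome 13 of the mouse, was described here through the contacts that its own promoter made along the gene. The members were the 64 positions, of 1001 in each library, that lay inside the annotated gene (ENSMUSG00000021466.5, minus strand, 63610261 to 63674474, mm9), chosen by coordinate alone. Contacts were measured by 4C-seq, in which cells are fixed with formaldehyde, their chromatin is cut and ligated, and the DNA joined to 1 chosen fragment, the viewpoint, is amplified and sequenced. Mouse embryos at stage E11.5 (44 to 45 somites) gave 3 libraries, 1 per tissue: an anterior and a posterior limb library, from the forelimbs of 20 embryos that were cut into those parts, and a library of telencephalic vesicles, a control tissue from the front of the brain, whose embryo number the labels do not state. No genotype, strain or treatment sets the libraries apart in the labels; all were fixed in 2% formaldehyde for 10 min, cut first with NlaIII and then with DpnII, and read from the same viewpoint. There was no replicate, so no difference below has an error or a p-value, and the files hold DNA contacts only, with no marker against which the labelled tissue could be checked. Each profile averages over the cells of a pooled sample, so a strong contact in few cells and a weak one in many cannot be told apart.

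Ptch1 encodes the membrane receptor that binds Hedgehog ligands and, when no ligand is bound, holds back the signal transducer Smoothened. Ligand binding releases that brake and lets GLI transcription factors act, and Ptch1 is itself among the genes they switch on, which makes it both a brake on the pathway and a readout of it. In the limb bud the ligand Sonic hedgehog is made at the posterior margin, so posterior cells are exposed to more of it than anterior cells. A promoter's contacts along its own gene mostly follow distance, and stretches that stand above that decline are the usual places to look for regulatory DNA.

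The viewpoint was the NlaIII fragment from 63667995 to 63669157, 1163 bp long, with NlaIII sites (CATG) at both ends, 0 inside and 1 DpnII site (GATC). Its upper end is shown first, since the labelled viewpoint position, 63669139, lies 18 bases from it. The DpnII site is shown because ligation at it closed the circles that were amplified. Both are on the plus strand of the reference, with recognition sites in capitals.
Viewpoint fragment end, chr13:63669078-63669157: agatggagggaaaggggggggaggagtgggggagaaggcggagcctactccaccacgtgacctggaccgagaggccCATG
DpnII site, chr13:63668465-63668528: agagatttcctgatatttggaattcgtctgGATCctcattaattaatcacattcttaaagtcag

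The RefSeq promoter of Ptch1 (a GRCm38.p6 entry, matched here to the mm9 sequence at 1 place) puts the start of the gene at 63667043, so that the viewpoint fragment lay 952 to 2114 bp upstream of that start. The annotated transcript with 23 exons (ENSMUST00000021921.5), used for exon numbers here, starts at 63666828, and the most upstream annotated start was 5.33 kb beyond the viewpoint, at 63674474. Because Ptch1 is a GLI target, the core GLI motif GACCACCCA was searched on both strands. There were 2 matches in the gene, 2850 bp apart and 1 on either side of the viewpoint fragment, 1.40 and 1.45 kb from the labelled position. They are shown on the strand of the match, with the motif in capitals.
GLI match between the viewpoint and exon 1, plus strand, chr13:63667723-63667771: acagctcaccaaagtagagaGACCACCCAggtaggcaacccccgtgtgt
GLI match upstream of the viewpoint, minus strand, chr13:63670573-63670621: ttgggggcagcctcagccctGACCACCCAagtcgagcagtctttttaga

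A match describes letters and not a bound site. It was held by 9 of the 64 Ptch1 windows of 5 kb (14.1%), against 8.39% of the 1001 windows of that length in the span, and these 9 were neighbours around the viewpoint. A match outside the gene, at 63674773 and 5.63 kb upstream of the viewpoint, also counted. The window at 63672984 held it as a further match, and the window at 63673984 held no other. The next match on the gene-body side was 90.1 kb from the viewpoint, beyond the end of the gene. No Ptch1 window farther than 10 kb from the viewpoint thus held these letters.

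The deposited values are a normalised 4C signal at positions 1 kb apart. Each position has a median with an upper and a lower quantile of the surrounding window, for widths of 2 to 49 kb, and the levels of the quantiles are not stated. The 5 kb window is used below unless another is named. Depth was unknown. The highest value of the 6 kb running median was exactly 1.00 in all 3 libraries, so the signal appears to be expressed relative to the strongest stretch beside the viewpoint, and levels there are tied across tissues by the scale itself. Most of the 996 positions with a value sat on 2 repeated levels per library, 0.0193 and 0.0245 for telencephalon, 0.0264 and 0.0276 for anterior limb, 0.0259 and 0.0269 for posterior limb. These levels held 90.5%, 93.7% and 91.7% of positions and are called the baseline. The sources used here do not state whether they were measured or filled in. In Ptch1 26, 33 and 13 of the 64 positions were on them, in the order telencephalon, anterior limb, posterior limb, and 0 were below. Raised positions are those with at least 2 times the median of their library over the span, that is with 0.0386, 0.0527 and 0.0519 or more.

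Ptch1 held 6.43% of the positions and 36.4% of the summed signal of the telencephalon library, 29.7% of the anterior and 34.2% of the posterior limb library. The viewpoint lies in the gene, so the high signal beside it is part of these shares. Raised positions numbered 37 of 64 in telencephalon, where the share over all positions was 4.02%, 24 in anterior limb (background 2.81%) and 42 in posterior limb (background 4.62%). These backgrounds include Ptch1 itself, since 40, 28 and 46 positions were raised over the whole span. All 15 positions within 10 kb of the viewpoint were raised in each library. Of the 49 farther ones 22, 9 and 27 were. A further 1, 7 and 9 positions were above baseline but not raised. Position by position, 18 were raised in all 3 libraries, 10 in telencephalon and posterior limb, 9 in telencephalon alone, 8 in posterior limb alone, 6 in both limb libraries and not telencephalon, and 13 in none. No position was raised in anterior limb alone or in telencephalon and anterior limb alone. The 18 include all 15 positions within 10 kb. No share over all positions was computed for these overlaps, so they show nothing particular to Ptch1.

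**Figure D1:**
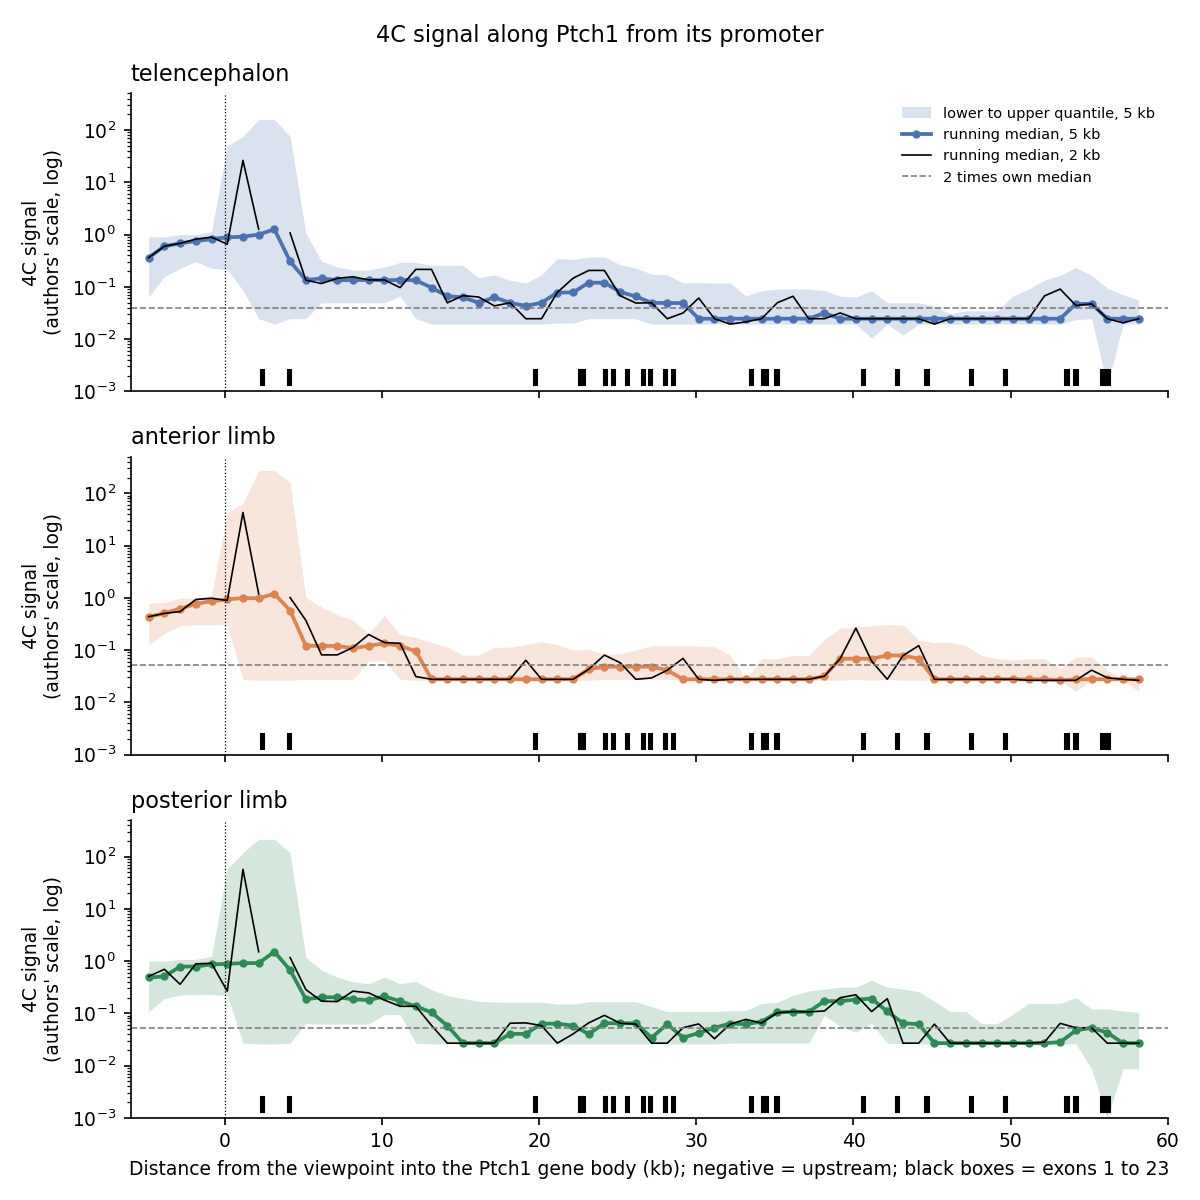
The 5 kb running median (coloured line with points), the range from lower to upper quantile of the same windows (shading, cut at 0.001) and the 2 kb running median (black line, left out where it is 0) are plotted on a log axis against distance from the viewpoint in kb, for telencephalon, anterior limb and posterior limb; black boxes are exons 1 to 23 and the dashed line is 2 times the library's own median. Exon boxes are widened where they would be too thin to see. Beyond 12.2 kb the 5 kb line of anterior limb is above the dashed line only at 39.2 to 44.2 kb, telencephalon stays above it to 29.2 kb, and posterior limb is above it in separate blocks.

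Levels beside the viewpoint, which the scale ties together, were close in the 3 tissues. At 63668984, the position nearest to the viewpoint, signal was 0.885 for telencephalon, 0.929 for anterior and 0.885 for posterior limb. The highest position of the span was 63665984, in intron 1 and 3.155 kb from the viewpoint, with 1.26, 1.19 and 1.51. At 63664984, over exon 2, they parted in 5 kb windows: signal was 0.308, 0.568 and 0.671, and posterior limb was 2.18 times telencephalon. In 2 kb and in 3 kb windows the same position had 1.07, 1.01 and 1.16, so that difference depended on window width. Over the 15 positions within 10 kb the mean was 0.550, 0.562 and 0.618, so anterior limb was 1.02 times and posterior limb 1.12 times telencephalon. With every profile scaled to its own median these ratios were 0.749 and 0.837. The direction of the proximal difference between limb and telencephalon thus follows the scaling.

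The quantiles around those proximal medians differed between the sides of the viewpoint. At 63665984, on the gene-body side, the upper quantile was 160 for telencephalon, 274 for anterior and 214 for posterior limb, while the lower quantile was 0.0193, 0.0264 and 0.0259, which are baseline levels. At 63671984, 2.845 kb away on the upstream side, the upper quantile was 1.00, 0.989 and 1.07 and the lower quantile 0.226, 0.290 and 0.223. The gene-body window thus spanned from baseline to far above its median, while the upstream window was above baseline at both quantiles in all 3 tissues. Upper quantiles above 10 were found at 5 positions in each library, from 63664984 to 63668984. The 3 windows from 63665984 to 63667984 held 16 to 18 unique fragment ends, fewer than any other in the gene, against a median of 38 in Ptch1 and 49 over the span.

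In 2 kb windows the same stretch broke up. The window at 63667984, centred on the lower end of the viewpoint fragment, had a median of 26.2 for telencephalon, 42.9 for anterior and 56.7 for posterior limb, and rested on 6 unique ends. At 63665984 all 3 quantities were listed at 0 in every library, in a window with 4 unique ends, although its 5 kb median was the highest of all. The proximal summit thus rested on few fragment ends. With windows of under 20 unique ends left out, the highest 5 kb median was at 63668984 in every library.

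Away from the promoter the signal was lower in steps. Over 5.2 to 9.2 kb, in intron 2, it formed a plateau: the 5 positions ranged from 0.134 to 0.145 for telencephalon, from 0.109 to 0.121 for anterior limb and from 0.179 to 0.203 for posterior limb. In these 5 kb windows posterior limb was highest and anterior limb lowest at each of the 5 positions. These are neighbouring windows that share fragments and not replicates. How often 5 neighbours keep the same order elsewhere in the span was not counted. Relative to the own median the plateau was 7.06, 4.47 and 7.38 times, so that telencephalon and posterior limb were then close and anterior limb remained lowest. In 2 kb windows the mean of the same 5 positions was 0.137, 0.169 and 0.227 as deposited. Telencephalon was then lowest, so the order of telencephalon and anterior limb depended on window width. Going into the gene from the highest position, signal stayed at or above 0.1 times that maximum to 12.2 kb from the viewpoint for telencephalon and 11.2 kb for posterior limb. For anterior limb it did so to 11.2 kb but for a single lower position at 8.155 kb, with 0.109.

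As a slope of log2 signal on log2 distance over the 58 gene-body positions from 1 kb outward, the decline was -1.04 for telencephalon, -0.89 for anterior and -0.85 for posterior limb. Over the 49 positions beyond 10 kb the slopes were -0.98, -0.28 and -0.41. Telencephalon had the steepest decline there and had 2 raised positions past 29.2 kb, while the limb libraries reached baseline early and were higher again farther on. The slopes are a description of overlapping windows, and a profile that reaches a flat baseline has a shallower one by construction.

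**Figure D2:**
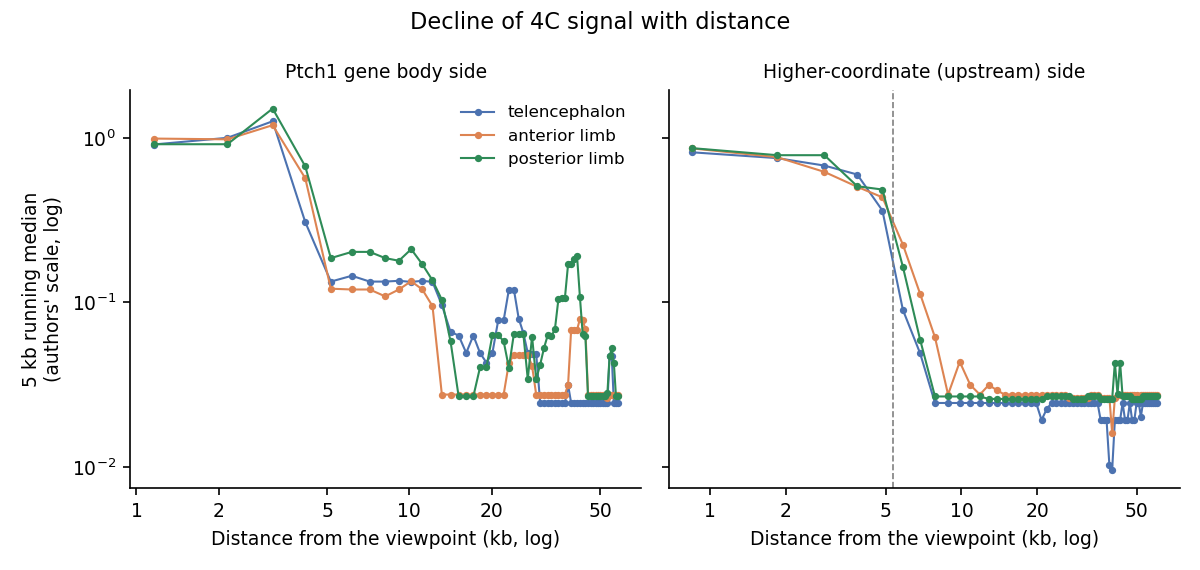
The 5 kb running median is plotted against distance from the viewpoint in kb, both axes log, for the 3 libraries: on the left the Ptch1 gene-body side, on the right the higher-coordinate side out to 60 kb, where the dashed line marks the most upstream Ptch1 start. On the right 0 positions from 10 kb to 58.9 kb are raised, whereas on the left 22, 9 and 27 of 49 are, in the order telencephalon, anterior limb, posterior limb.

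The other side of the viewpoint gives the yardstick at equal distance. At 2 to 5 kb the gene body was 1.57, 1.76 and 1.74 times the upstream side, both being high. At 5 to 10 kb, beyond the most upstream start, the upstream mean was 0.0426 for telencephalon, 0.0940 for anterior and 0.0609 for posterior limb, so the gene body was 3.21, 1.25 and 3.14 times the upstream side. At 10 to 20 kb it was 3.40, 1.90 and 3.22 times. From 10 kb to the distance of the gene's end, 58.9 kb, 0 of the 49 upstream positions were raised in any library, against the 22, 9 and 27 of 49 in Ptch1. Of the flanking genes, Fancc, a DNA repair gene beyond the end of Ptch1, had 1 raised position of 192 in each library and Ercc6l2, a helicase-family gene on the upstream side, had 0 of 85. Distance differs between these genes and Ptch1, so the counts are not a comparison of genes at equal distance.

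In 5 kb windows telencephalon was raised without a gap from the promoter to 63639984, 29.2 kb from the viewpoint. That stretch took in 35 Ptch1 positions and ran over exons 1 to 12 as far as intron 12. Within it all 10 positions at 10 to 20 kb and all 10 at 20 to 30 kb were raised, with values from 0.0431 to 0.135 and from 0.0489 to 0.120. Then, at this width, the signal was at or near baseline. At 30 to 40 kb the 10 positions lay between 0.0245 and 0.0316, and at 40 to 50 kb all 10 were at 0.0245, a baseline level. The only other raised telencephalon positions in 5 kb windows were 2 over exon 22 and intron 22, at 0.0470. In 2 kb windows the long stretch broke up, with separate raised runs at 4.2 to 18.2 kb and 21.2 to 27.2 kb. Between those runs telencephalon was at 0.0245 at 63648984 and 63649984. Farther out, 2 kb windows were raised at 30.2 kb (0.0610) and at 35.2 to 36.2 kb (mean 0.0577). They were also raised at 52.2 to 55.2 kb (mean 0.0621), so where telencephalon reached baseline depended on window width.

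Anterior limb had the shortest proximal stretch, raised to 12.2 kb in intron 2. At 10 to 20 kb 3 of 10 positions were raised, and at 20 to 30 kb 0 were, with values from 0.0276 to 0.0481. The upper of these, over exons 6 to 10, missed the threshold of 0.0527 narrowly. Anterior limb was raised again in a single detached block of 6 positions at 39.2 to 44.2 kb, between 0.0681 and 0.0793, over exons 16 and 17 and the introns around them. From there to the gene's end all its positions were on baseline levels.

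Posterior limb was raised to 14.2 kb, in intron 2, and then in blocks along most of the gene. It had 3 raised positions at 20.2 to 22.2 kb in intron 3, 3 at 24.2 to 26.2 kb from exon 6 to intron 8, 1 at 28.2 kb in intron 11, 14 without a gap at 31.2 to 44.2 kb and 1 at 55.2 kb in intron 22. The long block had 0.0531 at its near end in intron 12, 0.191 at its highest in intron 16 and 0.0622 at its far end in intron 17. Its lower quantile was highest at 63630984 in intron 15, with 0.0913 against 0.0193 for telencephalon and 0.0264 for anterior limb. Over the gene the lower quantile exceeded the library's own median at 28 positions in posterior limb (background 3.01%), 25 in telencephalon (2.71%) and 21 in anterior limb (2.31%), and beyond 10 kb at 15, 11 and 9. The own median is the lower baseline level of each library, so these counts include lower quantiles on the upper baseline level. In anterior limb even the median lower quantile within 10 kb was on that upper level, at 0.0276.

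The library with the highest signal therefore differed along the gene. At 10 to 20 kb the mean was 0.0832 for telencephalon, 0.0543 for anterior and 0.0841 for posterior limb. The ratio of posterior limb to telencephalon there was 1.01 before scaling and 0.752 with it, so that direction is set by the scaling. At 20 to 30 kb the mean was 0.0737, 0.0387 and 0.0549, so the limb libraries stood at 0.525 and 0.746 times telencephalon, or 0.385 and 0.555 times after division by the own medians. At 40 to 50 kb it was 0.0245, 0.0501 and 0.0743, 2.04 and 3.03 times telencephalon for the limb libraries, which also stood above it with that scaling (2.26 times for posterior limb). At 30 to 40 kb posterior limb was highest with 0.0949, against 0.0252 in telencephalon and 0.0320 in anterior limb, 3.76 and 2.96 times those libraries. The ratio of anterior limb to telencephalon there was 1.27 before scaling and 0.931 with it, so its direction is set by the scaling. Beyond 50 kb the means were 0.0295, 0.0274 and 0.0339.

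Averaged over all 49 positions beyond 10 kb these opposite differences partly cancel. The mean was 0.0476 for telencephalon, 0.0408 for anterior and 0.0691 for posterior limb, giving 0.856 for anterior limb over telencephalon, 1.45 for posterior limb over telencephalon and 1.70 for posterior over anterior limb. After division by the own medians they were 0.627, 1.08 and 1.72. With 1 library per tissue, none of these has a replicate check.

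**Figure D3:**
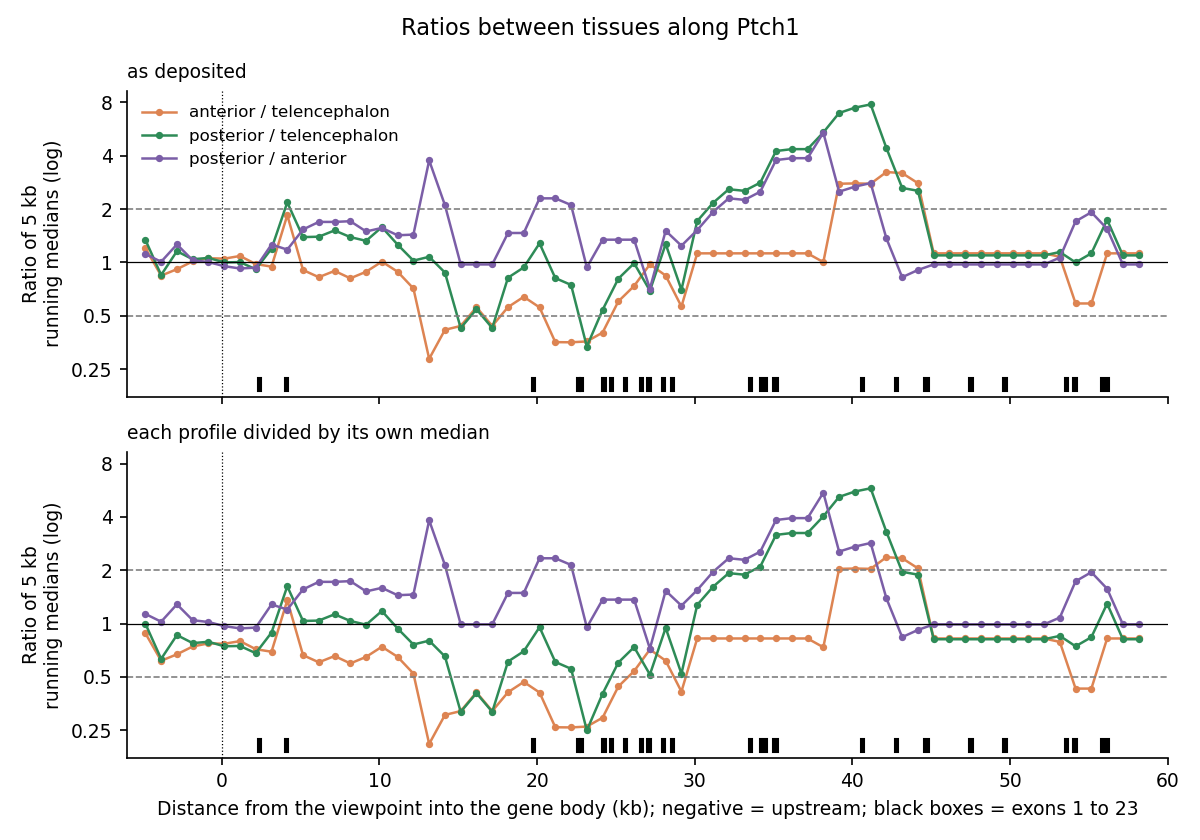
Ratios of the 5 kb running medians are plotted on a log axis at each of the 64 Ptch1 positions against distance from the viewpoint in kb, as deposited (top) and with profiles scaled to their own medians (bottom); dashed lines mark 0.5 and 2, and black boxes are exons 1 to 23, widened where too thin to see. With either scaling, anterior limb over telencephalon is under 0.5 at 13.2 to 15.2 kb, 17.2 kb and 21.2 to 24.2 kb. It is above 2 at 39.2 to 44.2 kb with either scaling. Posterior over anterior limb is above 2 at 13.2 to 14.2 kb, 20.2 to 22.2 kb and 32.2 to 41.2 kb with either scaling.

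Telencephalon was the highest library at 17 of the 64 positions (background 1.91%), anterior limb at 14 (background 82.5%) and posterior limb at 33 (background 14.8%). After scaling these counts were 42, 2 and 20 (backgrounds 18.2%, 5.02% and 11.2%). Anterior limb, whose baseline was the highest as deposited, was thus the highest library at 21.9% of Ptch1 positions as deposited, and after scaling at 3.12%, a share near its background.

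Counted by a fold of 2, posterior limb exceeded anterior limb at 15 of 64 positions (background 2.02%) and the reverse held at 0 (background 0.304%). Posterior limb exceeded telencephalon by that fold at 15 (background 2.73%), anterior limb at 6 (background 1.52%). Telencephalon was at least 2 times anterior limb at 8 (background 0.911%) and posterior limb at 3 (background 0.506%). After scaling the last 2 counts were 16 and 5 (backgrounds 1.82% and 0.810%), and those for posterior and anterior limb over telencephalon 9 and 6 (1.62% and 0.911%). The longest run of telencephalon over anterior limb after scaling was 13 positions without a gap at 13.2 to 25.2 kb, from intron 2 to intron 7, with folds of 2.13 to 4.78. As deposited, that excess was called in 2 shorter runs, of 3 and 4 positions.

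The 3 tissues also shared places. In 5 kb windows the summit in intron 2 was found within 2 kb in all of them: at 63657984, 11.2 kb away, for telencephalon (0.135) and at 63658984, 10.2 kb away, for anterior (0.135) and posterior limb (0.211). In telencephalon 63659984 had the same value and 63662984 had 0.145, so its summit did not stand out from the plateau beside it. Telencephalon and posterior limb shared a low summit at 63613984 in intron 22, 55.2 kb away, with 0.0470 and 0.0529, where anterior limb was at 0.0276. A summit of the limb libraries in intron 16, at 63626984 for anterior and 63627984 for posterior limb, had no counterpart in telencephalon.

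In 2 kb windows, the finest deposited, exon 6 became a place common to all tissues. At 63644984 the 2 kb median was 0.206 for telencephalon, 0.0802 for anterior and 0.0914 for posterior limb, a summit in each library with telencephalon highest. Around it, over the 4 positions at 21.2 to 24.2 kb, telencephalon was 3.56 times the anterior and 2.83 times the posterior limb library. The window at 63628984, in intron 15 and 40.2 kb away, was a summit in both limb libraries, 0.263 for anterior and 0.226 for posterior limb, and telencephalon was on baseline there with 0.0245. At 63626984, within the same detached block, anterior limb was on baseline with 0.0276 and posterior limb had 0.191, so their order differed between positions of the block. Over 8 positions at 32.2 to 39.2 kb posterior limb was 3.13 times anterior limb, and at 43.2 to 44.2 kb anterior limb, at 0.0999 over 2 positions in intron 17, was 3.72 times posterior limb, though below its upper quantile at both. The windows of these limb runs held 14 to 18 unique ends.

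Another 2 kb difference lay in intron 2. At 63655984 and 63656984, 13.2 and 12.2 kb away, telencephalon was at 0.215 at both, with 0.0276 and 0.0311 for anterior and 0.0586 and 0.136 for posterior limb. Telencephalon was thus 7.34 times anterior limb over the pair, and its median exceeded the anterior upper quantile at both. In 5 kb windows the same positions gave 0.0965 and 0.133 in telencephalon against 0.0276 and 0.0950 in anterior limb. At 63615984 in intron 20, 53.2 kb away, the 2 kb median was 0.0904 for telencephalon, 0.0264 for anterior and 0.0644 for posterior limb, and in 5 kb windows all 3 were near baseline, at 0.0245, 0.0264 and 0.0281. The 2 kb window there rested on 10 unique ends.

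In 2 kb windows 37, 25 and 42 Ptch1 positions were raised (backgrounds 5.11%, 3.40% and 6.01%), against 37, 24 and 42 in 5 kb windows. The counts of tissue differences were more sensitive to width. Of 63 positions with a value above 0, posterior limb reached 2 times telencephalon at 15 (background 8.19%) and anterior limb at 8 (background 4.56%). On the same count, posterior limb reached 2 times anterior limb at 21 (background 6.63%) and telencephalon at least 2 times anterior limb at 12 (background 3.21%). Telencephalon at least 2 times posterior limb was found at 9 (background 5.90%), and anterior over posterior limb at 3 (background 5.07%), a share near its background.

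Wider windows, as deposited, kept the order of the tissue means beyond 10 kb. They contain the narrower ones, so they are no separate evidence, and many take in sequence near the viewpoint or outside Ptch1. The ratio of posterior to anterior limb was 1.68 in 6 kb windows, 1.82 in 18 kb and 1.52 in 48 kb windows, and that of anterior limb to telencephalon was 0.839, 0.717 and 0.900. Of the 6 positions of the detached anterior limb block, 5 were raised for anterior limb in 10 kb windows, 2 in 12 kb and 0 in 13 kb and wider windows. Posterior limb had 5, 5 and 6 of them raised at those 3 widths, and telencephalon 0 at every width.

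**Figure D4:**
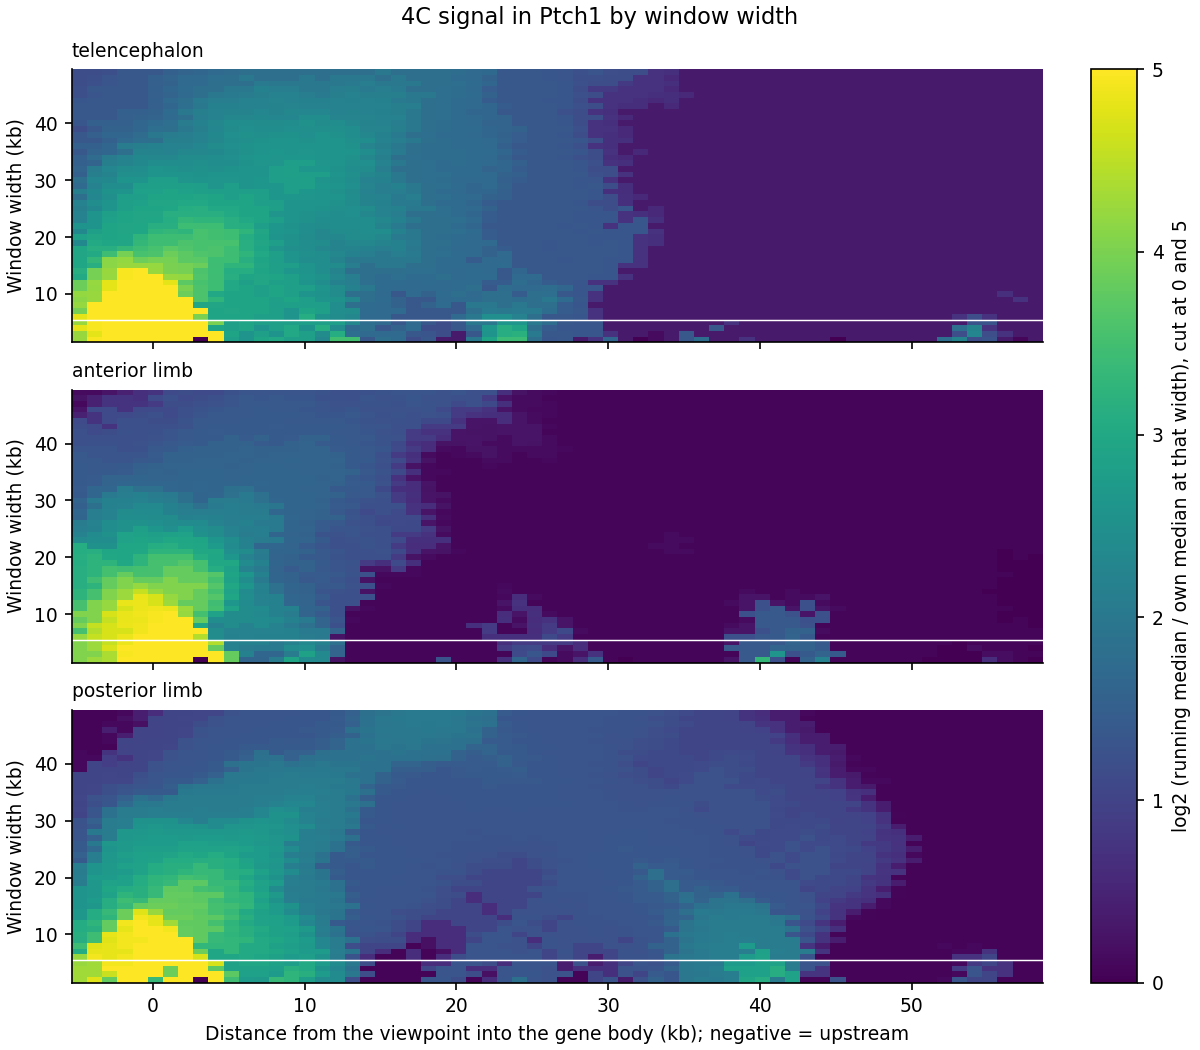
The running median in Ptch1, divided by the library's own median at the same width, is shown as a log2 value (colour, limited to 0 to 5) for window widths of 2 to 49 kb (vertical axis) against distance from the viewpoint in kb, 1 panel per tissue; the white line separates widths up to 5 kb. The detached anterior limb block near 40 kb is raised in windows of up to 12 kb only, posterior limb is raised there up to far wider windows, and telencephalon has no such block.

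Sequence content of the windows was set beside the signal as a description, across overlapping positions of the same library. Over all 64 positions log2 signal correlated with the number of unique NlaIII ends in the window with Pearson's r of -0.590 for telencephalon, -0.685 for anterior and -0.710 for posterior limb. The promoter windows combine the fewest ends with the highest signal. Over the 49 positions beyond 10 kb r was -0.0964, -0.382 and -0.453, and the corresponding values for GC content were -0.390, 0.0301 and -0.00937. The part of fragment density in the limb signal was not tested. Between tissues, over the same 49 positions, r of log2 signal was 0.653 for the limb libraries, 0.356 for anterior limb and telencephalon and 0.232 for posterior limb and telencephalon. All libraries share the windows, the fragments and the decline with distance.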

How the data were processed

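Per the submitters' processing notes, the build was mm9. No aligner, read filter or normalisation is given in the sources used here. Files deposited by the authors hold a normalised 4C signal, summarised at 48 window widths in 3 unnamed quantities. The width was read from how many end positions are empty, and the median, upper and lower quantile from their order, with 0 violations. The reference was NCBIM37 (the assembly behind mm9) with GENCODE M1, in which Ercc6l2 carries an older symbol that RefSeq lists as its synonym. A fragment end was unique when its first 30 bases occurred once among the 211 reference sequences, and GLI matches were exact.

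Computed here with Python 3.11.15, numpy 2.4.6, pandas 2.3.3 and scipy 1.17.1 were bin means, ratios (without an offset, where the lower library was above 0), slopes, raised positions and summits. A summit was the highest position within 3 kb, at 2 or more times the own median, at most 6 per library, and summits at most 2 kb apart were shared. Runs needed 2 or more consecutive positions with a fold of 2. Slopes, raised positions, summits and runs were tested on simulated data. Positions named were Ptch1 summits, runs, and those nearest to or highest beside the viewpoint; others (the lower quantile at 63630984, the quantiles at 63671984, the values at 63664984, the 2 kb values at 63665984) were chosen after their values were seen. Members, rules and settings were chosen with earlier results of these data known. Alternatives were windows of 2, 3, 4 and 10 kb, both quantiles, division by the own median, windows with at least 20 unique ends, other thresholds and other fitted distances. Depth was unknown, so no counting interval was computed.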

Additional observations from a re-analysis of the deposited data

How the results depend on the processing

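Main values were 37, 24 and 42 raised positions (telencephalon, anterior limb, posterior limb), slopes of -1.04, -0.89 and -0.85, and the ratios given above. Of the recomputed values 84 stayed within 1.5 times of these, 17 moved further and 7, all of them ratios between tissues, changed direction. Some of the 84 could not move. Division by the own median leaves raised counts and slopes unchanged, and the filter on unique ends removed no position beyond 10 kb. With the upper quantile raised positions were 59, 59 and 64, slopes -1.79, -1.82 and -1.66, the proximal anterior over telencephalon ratio 1.56 and posterior over anterior 0.891. With the lower quantile raised positions were 63 in telencephalon and 64 in anterior limb, slopes -0.32, -0.0597 and -0.27, proximal posterior over anterior 0.895 and gene-body anterior over telencephalon 1.28. No share over all positions is given for the quantile counts, so they show nothing particular to Ptch1. The median lower quantile over all positions was 0.00128 in telencephalon and 0.00132 in anterior limb. A lower quantile at baseline therefore counted as raised. The proximal anterior over telencephalon ratio was 0.994 in 3 kb and 0.992 in 4 kb windows and 0.749 after division by the own medians, where posterior over telencephalon was 0.837; in 2 kb windows the latter was 1.93. At 3 times the own median posterior limb had 27 raised positions. Fitted beyond 10 kb the slope was -0.28 in anterior and -0.41 in posterior limb, and within 10 kb -1.39 in anterior limb. The cause was not tested. No paired analysis was possible because there is only 1 library for any tissue, and no library could be left out. Unknown depth and baseline origin limit every fold against a library at baseline.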
